A study of Mustela putorius furo with 8 samples.

Results

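CF ductal cluster 2 was a group of cells from cystic fibrosis (CF) pancreatic ductal epithelial (PDE) cultures with more of the endothelin ligand EDN2 and the Notch target HEY1 than any other CF day 2 cluster of at least 50 cells. It was also high in the keratin KRT15 and the Notch ligand DLL1, which single other clusters nearly matched. Its members were all cells that the authors' cell table assigns to CF cluster 2, a cluster they classed as ductal. There were 678 of them among 11345 CF cells and 32945 cells in the series. On day 2 there were 676, which was 15% of the 4499 CF cells of that day (95% Clopper-Pearson interval 14 to 16.1%), and on day 5 there were 2. None of 1607 cells on day 7 and none of 2489 on day 9 belonged to it, where 3 cells would be 0.187% and 0.121%.

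The cultures came from newborn ferrets of 2 genotypes, wild type (WT) and CFTR KO/KO, the latter lacking the chloride and bicarbonate channel CFTR and derived by somatic cell nuclear transfer. Duct cells of kits aged 1 to 3 days were grown for 10 passages on 804G-coated dishes, seeded on 804G-coated transwell inserts, and sampled after 2, 5, 7 or 9 days at an air-liquid interface (ALI). The days are those of the sample titles, and the growth protocol in the labels gives a longer time at the ALI. The study pooled several donors of a genotype, and each of the 8 libraries was 1 droplet-based (10x Genomics) preparation for 1 genotype and day. Cells could not be assigned to a donor here, so a donor, a library and a genotype cannot be told apart. Each day of a genotype was likewise 1 library, and the authors made no batch correction. Day and library therefore cannot be told apart either. The comparisons below are therefore descriptions with no test, and every interval is a 95% interval that covers counting error only. The cells had been grouped by their expression, so differences between this cluster and other cells of the same cultures are partly built in.

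Notch is a signalling system between touching cells. Ligands of the Delta and Jagged families on 1 cell activate Notch receptors on its neighbour, the released receptor fragment works with RBPJ, and HES and HEY repressors are induced. Fringe enzymes such as LFNG modify the receptors and shift which ligand they respond to. In the pancreas Notch is known for keeping progenitors undifferentiated and for biasing them toward duct over endocrine and acinar fates. KRT15, KRT5, TP63 and DLK2 are best known from basal cells of stratified and airway epithelia.

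The 676 day 2 cells held 10207296 unique molecular identifiers (UMIs). A cell held 3063 to 52820 UMIs with a median of 12893, against a median of 19543 in the 3823 other CF day 2 cells. The median share of mitochondrial UMIs was 6.43% against 7.20%. Of the 676 barcodes, 3 recurred in the CF day 5 library and 0 to 4 in each of the others. Any 2 libraries shared 1 to 14 barcodes. CFTR was counted at 2.50 to 11.4 UMIs per 1000000 UMIs of the set (CPM) in the CF libraries and 6.57 to 29.5 CPM in the WT libraries, lower in CF than in WT on each of the 4 days. Cluster 2 held 16 CFTR UMIs, or 1.57 CPM. The paper describes CFTR KO/KO ferrets as making no CFTR mRNA or protein, yet CFTR UMIs were counted in all 4 CF libraries. Whether the counted 3′ end of CFTR lies outside the disrupted part is not given in the sources used here, so this says little about the genotype. The libraries differed more in PDX1, a pancreatic transcription factor, which was at 3.37 to 5.04 CPM in the CF libraries and at 0 to 0.012 CPM in the WT libraries.

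The ductal label was checked against the 6 ductal genes the study used, which were chosen on the same cells. All 6 were detected, and KRT15 alone was at least 2-fold higher than in the other CF day 2 cells. KRT5 differed by 0.82 on the log2 scale, CAPG and KRT19 by 0.32 each, ADIRF by 0.16 and S100A10 by −0.27. The summed level of the list was 12461 CPM, and 4 of the other 11 clusters with at least 50 day 2 cells lay above it. The 7 acinar genes of the study summed to 1193 CPM against 856.5 CPM in the other cells, and none of those clusters lay above. Of that sum LDHA was 897.5 CPM. Of 13 general duct genes, 9 reached 10 CPM in either set, none was 2-fold higher and KRT8 was lower (470 against 1215 CPM). Of all genes compared in this way, 1.16% were at least 2-fold higher and 3.44% lower. No gene of any class list was among the 10 genes with the highest fold in the cluster. The list of 14 basal epithelial genes that the matrix holds summed to 4573 CPM against 2854 CPM in the other cells. KRT15 was about as high in cluster 26, so no gene of the ductal list was particular to the cluster.

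The 5 genes that give the cluster its name are shown first, by cluster. All are protein-coding in the RefSeq annotation of ASM1176430v1.1, the assembly the authors mapped to, in which the table used here names no chromosome. EDN2 spans bases 31771509 to 31777077 of its sequence, KRT15 553070 to 557406, HEY1 12892319 to 12896411, DLL1 264171 to 272499 and DLK2 10163008 to 10167993. DLK2 overlaps ABCC10 and LFNG overlaps LOC123390708, so some of their reads could be shared.

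EDN2, a secreted vasoactive peptide, was at 21.2 CPM (216 UMIs, interval 18.4 to 24.2) in cluster 2. In the other 11 clusters it lay between 0.809 CPM in cluster 4 and 6.87 CPM in cluster 24. Cluster 2 was 3.08 times the highest of these (interval 2.10 to 4.68), the widest gap to the next-highest cluster among the 5 markers. HEY1, a repressor downstream of Notch, was at 25.7 CPM (22.7 to 29.0), with cluster 1 next at 13.6 CPM and cluster 4 lowest at 3.51 CPM. The ratio to cluster 1 was 1.89 (1.53 to 2.33).

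DLL1, a Delta-family ligand, was at 155 CPM (147 to 162) in cluster 2, 139 CPM in cluster 1, 115 CPM in cluster 20 and 91.7 CPM in cluster 28, and was lowest in cluster 4 at 8.03 CPM. Cluster 2 thus led cluster 1 by a factor of 1.11 (1.04 to 1.20), and the high DLL1 level was common to a group of clusters. KRT15, a keratin of basal cells, was at 41.8 CPM (38.0 to 46.0) against 41.2 CPM (28.0 to 58.5) in cluster 26. These 2 clusters did not differ beyond counting error, and cluster 10 followed at 33.1 CPM. DLK2, a non-canonical Delta-like membrane protein, put cluster 2 in the fourth place, with 36.4 CPM (32.8 to 40.3). It was at 74.4 CPM in cluster 26, 52.0 CPM in cluster 1 and 39.3 CPM (32.1 to 47.7) in cluster 28. DLK2 was therefore shared with these clusters and was at 0.70 times (0.612 to 0.801) its level in cluster 1.

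**Figure D1:**
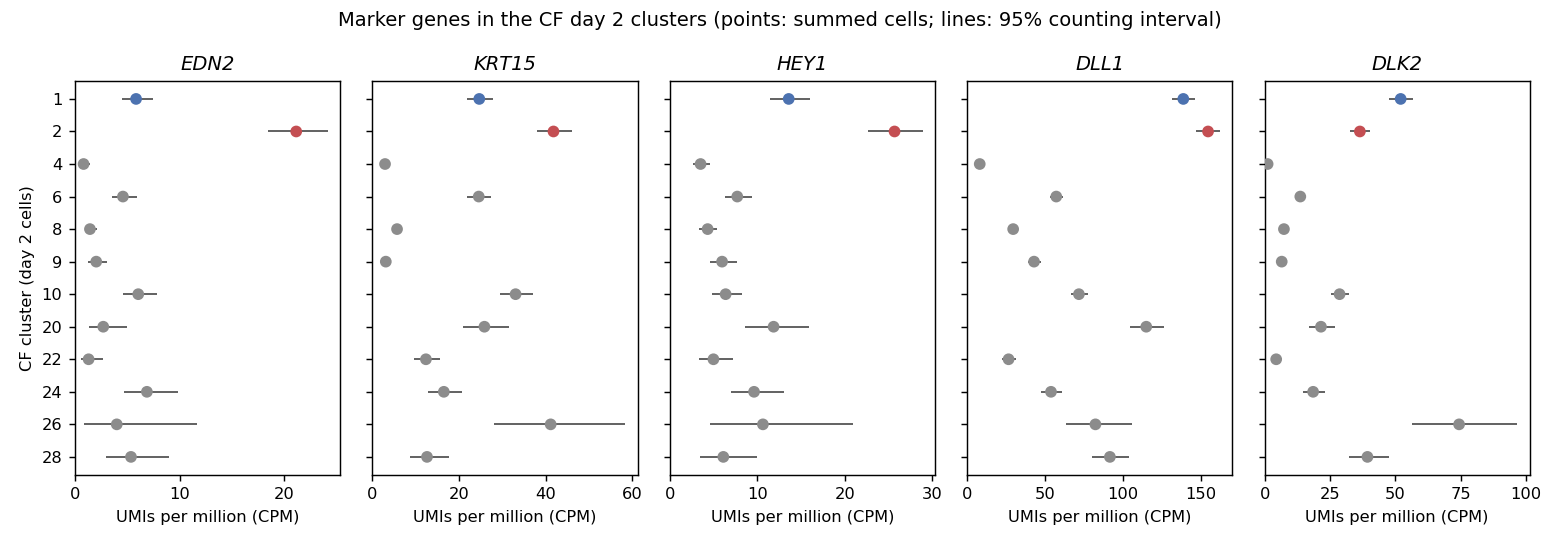
Levels of EDN2, KRT15, HEY1, DLL1 and DLK2 in CPM (horizontal axes, from 0) in each CF cluster with at least 50 day 2 cells (vertical axis), with 95% counting intervals as lines. Cluster 2 (red) was highest for 4 of the 5 genes, cluster 1 (blue) followed closely for DLL1 at 139 CPM, and cluster 26 led for DLK2 at 74.4 CPM.

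Against all other CF day 2 cells together the 5 markers were each at least 2-fold higher. EDN2 was at 3.22 CPM in the other cells, a difference of 2.39 on the scale of log2(CPM + 1) and a ratio of 6.56 (5.48 to 7.85). HEY1 was at 6.81 CPM there (log2 difference 1.77), DLL1 at 54.9 CPM (1.48), KRT15 at 14.7 CPM (1.45) and DLK2 at 16.8 CPM (1.08). EDN2 and HEY1 reached the limit of 10 CPM in cluster 2 and not in the pooled other cells, so their direction was set by the limit. DLK2 came to 0.56 when each of the other clusters had equal weight, and to 0.83 when each cell had equal weight.

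The share of cells in which a marker was seen depended on depth. After every cell was thinned to 3000 UMIs, DLL1 had a UMI in 32.4% of the 676 cells (28.9 to 36.1%), against 16.4% of 3784 other cells. KRT15 had a UMI in 10.7% against 3.86%, DLK2 in 10.4% against 5.02%, HEY1 in 7.25% against 2.51% and EDN2 in 4.44% against 0.687%. Left out as too shallow were 39 of the other cells and none of cluster 2. At 6000 UMIs, over 669 cells, the shares were 56.4% for DLL1, 19.3% for DLK2, 16.6% for KRT15, 14.7% for HEY1 and 7.17% for EDN2. Without thinning the shares were 80.2% for DLL1, 34.8% for DLK2, 29.7% for KRT15, 27.8% for HEY1 and 12.9% for EDN2. No cell type known to lack these genes was present, so the lowest cluster served as the background. Cluster 4, with a median of 21151 UMIs, had shares of 2.13% for DLL1, 1.15% for HEY1, 0.164% for DLK2 and 0 of 611 cells for EDN2 (Clopper-Pearson upper limit 0.602%). Cluster 9, with a median of 26424 UMIs, had 0.267% for KRT15. All 5 shares in cluster 2 were above those levels, which were the lowest of any cluster. The markers name cluster 2 and the lowest cluster was taken for each gene, so this order was largely built in. At 3000 UMIs in cluster 1, DLL1 was seen in 31.1% of cells (27.7 to 34.6%) and DLK2 in 13.2%. KRT15 was seen in 9.83% of cluster 10 cells (6.90 to 13.5%). These 3 shares were therefore not particular to cluster 2. HEY1 and EDN2 were seen in 4.30% and 1.53% of cluster 1 cells.

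The genes also differed in how evenly their UMIs were spread over the cells. The 34 cells with most EDN2 held 69.9% of its 216 UMIs, and 87 cells held all of them. For KRT15 the top 34 cells held 41.9%, for HEY1 35.9%, for DLK2 31.7% and for DLL1 18.6%. Such shares also depend on the number of UMIs, which was 1579 for DLL1. At the common depth the variance of the UMI number over its mean was 1.58 for EDN2 and 1.61 for KRT15, against 1.04 for HEY1, 1.07 for DLK2 and 1.15 for DLL1, where 1 is pure counting. At 6000 UMIs it was 2.45 for EDN2, 1.98 for KRT15, 1.31 for DLK2, 1.23 for DLL1 and 1.16 for HEY1. EDN2 and KRT15 thus had the highest ratios at both depths, and all 5 ratios were higher at the greater depth. At 3000 UMIs the EDN2 ratio was 1.49 in the other CF day 2 cells and 1.85 in cluster 6, so it was not particular to cluster 2. At 6000 UMIs it was 1.35 in the other cells and 1.24 in cluster 6. The KRT15 ratio in the other cells was 1.26 at 3000 UMIs and 1.66 at 6000 UMIs. Whether the concentrated cells came from 1 donor could not be examined.

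Of the 10 pairs of markers, none was seen together in many more cells than their separate shares give, though the low detection limits what could be seen. DLL1 and HEY1 were both seen in 16 of 676 thinned cells, where independence gives 15.9. KRT15 and DLL1 were both seen in 24 cells against 23.3, EDN2 and KRT15 in 3 against 3.19, and KRT15 and DLK2 in 7 against 7.46. DLK2 and DLL1 were seen together in 21 against 22.7, EDN2 and DLL1 in 11 against 9.72 and EDN2 and DLK2 in 3 against 3.11. HEY1 had the lower counts, with EDN2 in 1 against 2.17, with KRT15 in 3 against 5.22 and with DLK2 in 4 against 5.07. DLL1 and JAG2, the other ligand, were both seen in 49 cells against 48.0. HES1, the best known Notch target, averaged 3.24 ± 2.39 UMIs (SD over 219 cells) in cells with a DLL1 UMI and 3.08 ± 2.48 (457 cells) in cells without. Ligand and target therefore showed no visible split into separate cells at this depth. Of the 5 markers, 47.3% of cluster 2 cells had none, 41.6% had 1, 9.76% had 2 and 1.33% had 3, against 75.1%, 21.6%, 3.09% and 0.185% of the other cells. More than 3 were seen in none of the 676 cells.

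Across all genes, 7665 reached 10 CPM in cluster 2 or in the other CF day 2 cells. At least 2-fold higher in cluster 2 were 89 genes, or 1.16%, and at least 2-fold lower were 264, or 3.44%. The median log2 difference was 0.02. Of the 89 genes 23 were under 10 CPM in the other cells, and of the 264 genes 160 were under 10 CPM in cluster 2. Such genes entered through the set in which they are high, so their direction was largely set by the limit. The number of higher genes depended on what the other cells were. It was 35 with equal weight for each other cluster (215 lower), 43 with equal weight for each cell (240 lower), 185 when the other ductal cells alone were used (256 lower) and 152 when cluster 1 was left out. In these the share of higher genes among all that differed by 2-fold ran from 14 to 42.0%, and it was 25.2% as first given.

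The genes with the next highest differences had varied roles. IGFBP3, which binds insulin-like growth factors, was at 988 CPM against 252 CPM, a ratio of 3.91 (3.82 to 4.01). GADD45B, a stress-response gene, was at 834 against 266 CPM (log2 difference 1.64), and IER5L, an immediate early response gene, at 95.9 against 30.3 CPM (1.63). FGFR2, a fibroblast growth factor receptor, was at 58.4 against 18.4 CPM (1.61). HMCN2, an extracellular matrix protein of the hemicentin family, was at 10.2 against 2.87 CPM (1.53), and ASS1, an enzyme of arginine synthesis, at 46.8 against 15.6 CPM (1.52). LOC101672959 (a protein-coding entry given by its LOC symbol only), AHNAK2 and VAV3 differed by 1.49, 1.48 and 1.41. HMCN2 and LOC101672959 were under 10 CPM in the pooled other cells, and ASS1, AHNAK2 and VAV3 were not highest in it among the 12 clusters. IGFBP3 was at 769 CPM in cluster 26 and GADD45B at 661 CPM in cluster 20. IER5L and FGFR2 were at 70.9 and 45.1 CPM in cluster 1. HMCN2 and LOC101672959 did not lead the next cluster beyond counting error. Against all CF cells of the 4 days IGFBP3 (0.53), GADD45B (0.75), FGFR2 (0.65), HMCN2 (0.64) and ASS1 (0.54) fell under 2-fold.

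**Figure D2:**
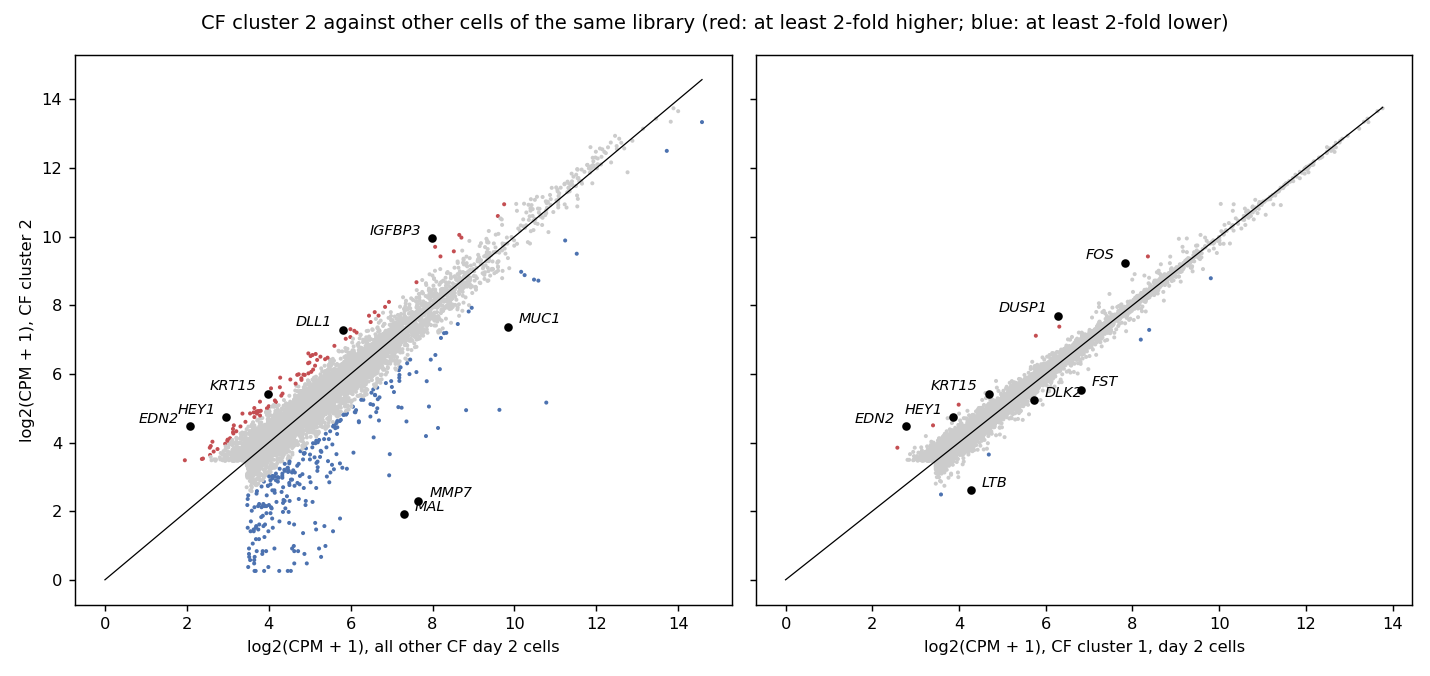
Each point is a gene of at least 10 CPM in either set, with its level in CF cluster 2 on the vertical axis and in the comparison cells on the horizontal axis, both as log2(CPM + 1). Red and blue mark genes at least 2-fold higher and lower, 89 and 264 against all other CF day 2 cells (left) and 9 and 7 against cluster 1 (right). The straight edges at low levels come from the limit of 10 CPM.

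The Notch genes are given by role. Beside the counts here and in the lists below, 1.16% of all genes were at least 2-fold higher and 3.44% lower. Of 5 ligands, 3 reached 10 CPM and 2 of these were at least 2-fold higher. These were DLL1 and JAG2, a Jagged-family ligand, which was at 79.5 against 30.8 CPM with a ratio of 2.58 (2.38 to 2.79). JAG1 was at 74.7 against 64.2 CPM (log2 difference 0.22), and DLL3 and DLL4 were below 1 CPM. JAG2 was about as high in cluster 28 (71.4 CPM) and in cluster 1 (70.7 CPM). The ligands therefore did not all differ, and their median was 1.34 over 3 genes and 0.22 over all 5.

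The receptors were not higher. NOTCH1 was at 80.5 against 84.6 CPM, and NOTCH2 was at 27.0 against 55.6 CPM, 2.06-fold lower (1.82 to 2.33), which with equal weight per cluster came to −0.77 on the log2 scale, under 2-fold. NOTCH3, at 1.37 against 5.66 CPM, and NOTCH4, at 0.784 against 1.1 CPM, were too low to be counted. Of 23 modulators, 12 reached 10 CPM, LFNG and DLK2 were at least 2-fold higher and the other 10 differed by −0.64 to 0.20. LFNG, the Fringe enzyme, was at 90.8 against 31.5 CPM with a ratio of 2.88 (2.67 to 3.10), while its relative RFNG was at 20.3 against 18.0 CPM. RBPJ, the DNA-binding partner of the receptor fragment, was at 70.8 against 80.0 CPM and its co-activator MAML2 at 25.2 against 22.4 CPM. The median over the modulators was 0.12, beside 0.02 for all genes.

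Of the 9 genes listed as targets, 3 reached 10 CPM. HES1 was at 1005 against 416 CPM, a ratio of 2.41 (2.36 to 2.47), and HEY1 was 3.77-fold higher. HES1 was highest in cluster 2 among the 12 clusters, followed by cluster 1 at 817 CPM and cluster 20 at 747 CPM, and was lowest in cluster 4 at 182 CPM. HES6, which is in this list although it is known to oppose HES1, was at 11.7 against 16.9 CPM. HES2, HES4, HES5, HEY2 and HEYL were below 1 CPM in the cluster. HEY1 counted through its level in cluster 2, and over all 8 target genes in the matrix, with no limit on level, the median was −0.01 against 1.27 over these 3. The Notch genes at least 2-fold higher were thus DLL1, JAG2, LFNG, DLK2, HES1 and HEY1. Of these DLL1, DLK2 and HEY1 are markers that name the cluster. They were high by that choice and add nothing to the counts of ligands, modulators and targets. With equal weight per cluster JAG2 was at 0.97 and DLK2 at 0.56, both under 2-fold, and against all CF cells of the 4 days HES1 was at 0.70. All 6 were lowest in cluster 4, which the authors classed as centroacinar progenitor.

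**Figure D3:**
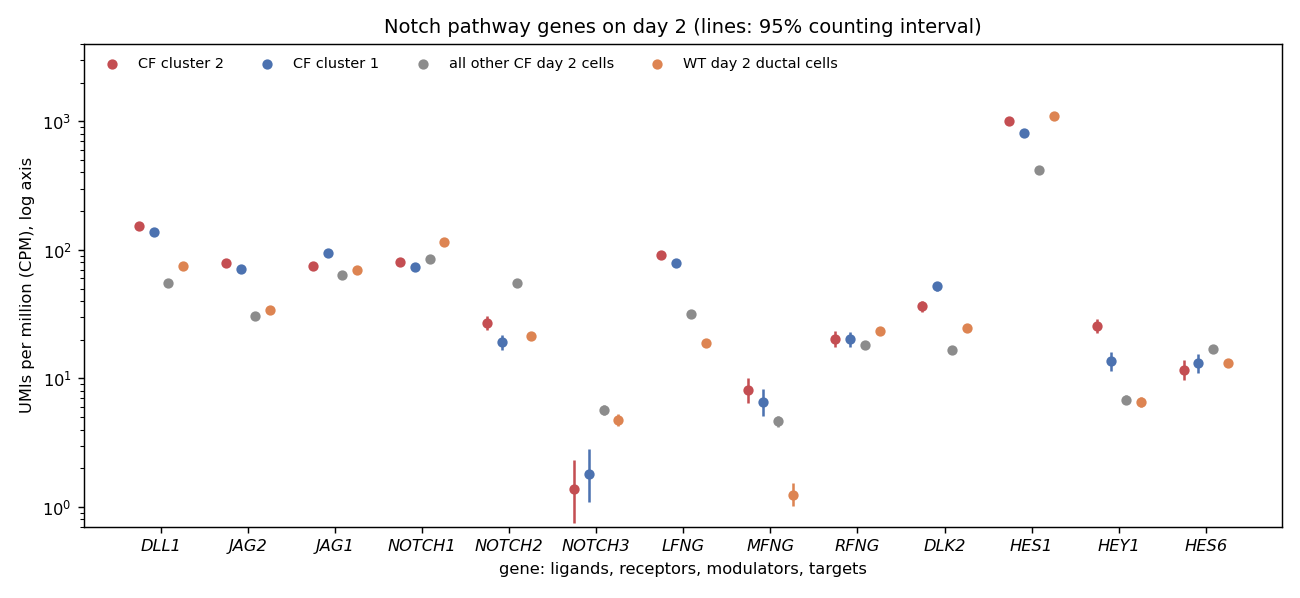
Levels of 13 Notch pathway genes in CPM (vertical log axis) in CF cluster 2, CF cluster 1, all other CF day 2 cells and WT day 2 ductal cells, with 95% counting intervals as lines. DLL1, JAG2 and LFNG were high in both CF clusters, and NOTCH2 was highest in the other CF cells at 55.6 CPM. HES1 was highest in the WT ductal cells at 1097 CPM. HEY1 was highest in cluster 2 at 25.7 CPM, with 13.6 CPM in cluster 1.

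EDN2, a marker that names the cluster, was the part of the endothelin system that differed. EDN1, its relative, was at 13.2 against 15.2 CPM, and ECE1, the enzyme that cuts the precursors, was at 59.6 against 39.3 CPM (log2 difference 0.59). EDN3 and the receptor gene EDNRB had no UMI in the cluster, and the receptor gene EDNRA had 1.

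Of the BMP and TGF-beta genes some were higher and none was lower. Of 8 BMP response genes at 10 CPM or more, 4 were at least 2-fold higher, none was lower, and the median was 1.01. Over all genes 1.16% were higher and 3.44% lower. ID3, an inhibitor of differentiation factors, was at 1972 against 859 CPM (1.20). The inhibitory SMAD7 was at 94.8 against 34.4 CPM (1.44), SMAD6 at 29.4 against 13 CPM (1.12) and ID4 at 247 against 114 CPM (1.11). Against all CF cells of the 4 days SMAD7 (0.36), SMAD6 (0.64) and ID4 (0.55) fell under 2-fold, while ID3 was at 1.03. ID3, ID4, SMAD6 and SMAD7 were each highest in cluster 2 of the 12 clusters. Of 8 TGF-beta targets, 3 were at least 2-fold higher, among them SNAI2 (57.6 against 26.8 CPM) and PMEPA1 (407 against 194 CPM). The median of that list was 0.99, and 0.40 over 16 genes with no limit. PMEPA1 was higher in cluster 28 (520 CPM) than in cluster 2. SNAI2 was at 65.3 CPM in cluster 28, not different from cluster 2 beyond counting error. Against all CF cells of the 4 days SNAI2 fell to 0.40.

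Of 15 immediate early genes measured, JUNB (1061 against 401 CPM), JUN (761 against 366 CPM) and DUSP1 (207 against 102 CPM) were at least 2-fold higher, none was lower and the median was 0.58. JUN and DUSP1 fell under 2-fold with TMM scaling (0.99 and 0.95). FOS was at 605 against 428 CPM (0.50). Dissociation of cells is known to induce such genes, and its part in the result was not tested. Other genes of fibroblast growth factor signalling differed by −0.33 to 0.57 beside FGFR2.

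The basal epithelial list had 12 members at 10 CPM or more, of which KRT15 and DLK2 were at least 2-fold higher, none was lower and the median was 0.60. Both KRT15 and DLK2 are markers that name the cluster, so they were high by that choice. TP63, the basal cell transcription factor, was at 129 against 65.6 CPM (0.97), DST, which anchors keratin to hemidesmosomes, at 940 against 476 CPM (0.98) and KRT5 at 1452 against 825 CPM (0.82). TP63 was higher in cluster 1 (150 CPM) and cluster 28 (146 CPM), and KRT5 was highest in cluster 28 (2175 CPM). The basal receptor gene NGFR had no UMI. Basal genes were thus shared with several CF clusters and were not a mark of cluster 2.

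The 10 lowest genes were as follows. LOC101680039, a protein-coding entry given by its LOC symbol only, was at 34.9 against 1754 CPM (log2 difference −5.61). MAL, a protein of apical membrane sorting, was at 2.74 against 157 CPM (−5.40) and MMP7, a secreted protease, at 3.92 against 200.1 CPM (−5.35). UPK1A, a uroplakin of surface plaques, was at 0.882 against 36.5 CPM (−4.32), and DUOXA2, which matures an oxidase, at 0.980 against 40.8 CPM (−4.40). With a pseudocount of 5 CPM these 2 came to −2.82 and −2.94, so the size of such differences depended on the pseudocount. CENPF and PCLAF, genes of dividing cells, were also among them. LOC101679224, LOC101676065 and the proton pump subunit ATP6V1G3 differed by −4.68, −4.45 and −4.21. LOC101676065 and ATP6V1G3 came to −2.68 and −2.33 with a pseudocount of 5 CPM. Of 20 secretory genes 6 reached 10 CPM in either set and were lower, 4 of them under 10 CPM in cluster 2, so that their direction was set by the limit. With no limit the median over 16 genes was −1.51. Among the 6 were MUC4, MUC16 and MUC5AC, which encode mucins, at −4.16, −3.90 and −3.69. MUC1 was at 166 against 918 CPM (−2.46). These mucins were highest in cluster 4, at 2047 CPM for MUC1. MAL, MMP7, UPK1A and MUC4 were about as low in cluster 1, at 2.3, 4.21, 1.24 and 1.44 CPM. LOC101680039 was at 37.4 CPM there, and MUC1 was lower than in cluster 2, at 78.5 CPM. Such low levels were therefore not particular to cluster 2.

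Of 12 S-phase genes, 7 were at least 2-fold lower and none was higher (median −1.14), and of 12 G2/M genes 9 were lower and none was higher (median −2.44). Of these 6 and 9 genes were under 10 CPM in cluster 2 and so entered through the other cells, and with no limit the medians were −1.41 over 17 genes and −2.44 over 18. CENPF had 6 UMIs in the cluster, or 0.588 against 37.8 CPM, and MKI67 had 7. Both were low in cluster 1 too, at 1.63 and 0.383 CPM. GINS2 and MCM4, which act at the replication fork, differed by −2.58 and −2.32, and PCLAF by −4.28. Most of the difference was lost without clusters 9, 10 and 24, which were left out after their values were seen. CENPF then differed by −1.02 and PCLAF by −1.67, the S-phase median was −0.20 over 7 genes and the G2/M median −0.25 over 2 genes, while 273 genes were at least 2-fold lower in all. The deposited phase calls put 67.2% of cluster 2 cells in G1, 20.4% in S and 12.4% in G2/M. MKI67 was seen in 7 of 676 cells before thinning, so no cycling was read from the calls.

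Of 9 interferon-stimulated genes 5 were at least 2-fold lower (median −1.17, and −0.45 over 13 with no limit), 2 of them under 10 CPM in cluster 2. Among the 5 were ISG20 at 32.1 against 240 CPM, IFI6 at 503 against 1146 CPM and MX2 at 1.57 against 27.6 CPM, each highest in cluster 4. Cluster 1 was near cluster 2 for these genes, at 41.3, 528 and 1.72 CPM. Of 12 genes of cholesterol synthesis 4 were lower, among them LSS (−1.44), MVD (−1.24) and IDI1 (−1.03), and all 12 lay below 0 (median −0.84). LSS and MVD were under 10 CPM in cluster 2. Of 7 EGFR ligands and receptors, ERBB3, BTC, EREG and AREG were lower (−1.89 to −1.03), ERBB3 and BTC from under 10 CPM in cluster 2, while HBEGF and EGFR differed by 0.62 and 0.39. S100A6, a calcium-binding protein that the study used as a centroacinar marker, was at 10377 against 24487 CPM, the lowest of the 12 clusters. Cluster 1 was close to that, at 11132 CPM.

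**Figure D4:**
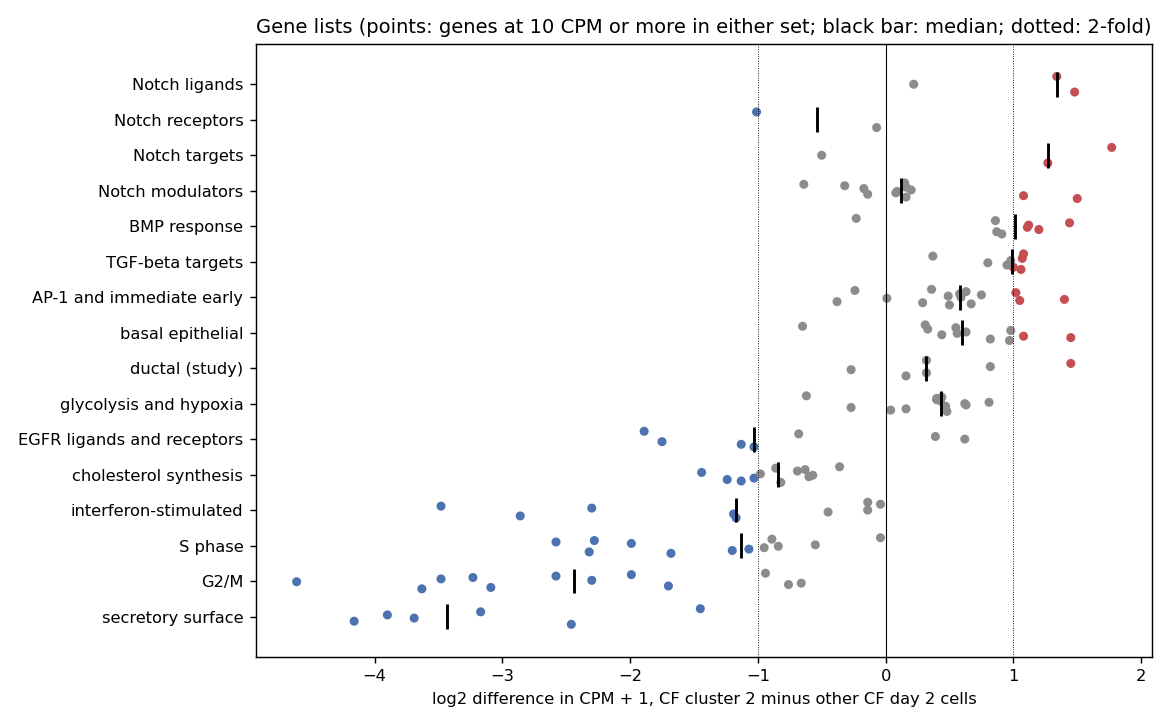
Log2 difference of single genes (points) between CF cluster 2 and the other CF day 2 cells for 16 gene lists, with the median of each list as a black bar and 2-fold limits as dotted lines. Notch ligands, Notch targets and BMP response genes lay above 1 at the median (1.34, 1.27 and 1.01), which with no limit on level were 0.22, −0.01 and 0.87, and the secretory and G2/M lists lay lowest (−3.43 and −2.44). The Notch ligand and target lists hold DLL1 and HEY1, which name the cluster.

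Remaining lists showed few or no such genes. Of 13 glycolysis and hypoxia genes none differed by 2-fold (median 0.43), nor did any of 13 amino acid and ER stress genes (0.20), 7 CDK inhibitors and D cyclins (0.18), 7 acinar genes of the study (0.02) or 3 mesenchymal genes (0.40, and −0.24 over 12 with no limit). HSPB1 was the higher gene among 8 heat shock genes (1.01, and 0.94 with TMM scaling), OCLN the lower among 14 junction genes, DKK1 the lower among 8 WNT genes and CRABP2 the lower among 5 retinoid genes. UPK1A was the lower gene among 5 squamous and surface genes, KRT4 the lower of 2 stratified keratins, and S100A6 the lower among 7 S100 genes. Of 8 centroacinar progenitor genes of the study the 4 mucins were lower (median −1.67, and −0.87 over 11 with no limit), 3 of them under 10 CPM in cluster 2, and none of its 5 proliferation genes reached 10 CPM. Most genes that mark other cell types were near 0. The acinar enzyme gene CLPS was at 20.4 against 18.1 CPM. The fibroblast list summed to 0.392 CPM, the endothelial list had no UMI, and the immune list was at 11.1 CPM, nearly all of it CD68. Insulin, glucagon and somatostatin had no UMI, and of the 14 endocrine genes ISL1 alone reached 10 CPM (28.8 against 26.7 CPM).

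Pancreatic progenitor factors did not set the cluster apart. None of 7 measured differed by 2-fold (median −0.25). SOX4 was at 772 against 422 CPM, GATA6 at 74.9 against 54.0 CPM and PAX6, an endocrine and eye development factor, at 71.1 against 85.4 CPM. PDX1 was at 3.23 against 3.39 CPM and SOX9, a duct progenitor factor, at 4.41 against 6.18 CPM.

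The cluster nearest to cluster 2 was cluster 1, with Pearson's r of 0.993 over log2(CPM + 1) of the 7665 genes, which are not independent. It was followed by cluster 20 (0.987), cluster 6 (0.974), cluster 28 (0.973), cluster 26 (0.966) and cluster 10 (0.962), and cluster 4 was farthest (0.851). Cluster 1 had 726 day 2 cells with a median of 13060 UMIs and a mitochondrial share of 6.40%, close to cluster 2. The authors classed clusters 1, 20 and 28 as centroacinar. Cluster 1 also had more of the summed ductal genes (13908 against 12461 CPM) and nearly the same summed centroacinar genes (13131 against 12499 CPM).

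Of 7434 genes at 10 CPM or more, 9 were at least 2-fold higher in cluster 2 than in cluster 1 (0.121%) and 7 were lower (0.0942%). EDN2 differed most, with a ratio of 3.63 (2.72 to 4.90). Among the other 8 were the immediate early genes DUSP1 (207 against 76.9 CPM), FOS (605 against 227 CPM) and NR4A1 (13.4 against 4.97 CPM). BTG2, which restrains division, was at 687 against 327 CPM and SOCS3, a brake on cytokine signalling, at 21.6 against 9.56 CPM. MUC1 was at 166 against 78.5 CPM, LGALS9 at 33.4 against 14.9 CPM and LOC101672378 at 137 against 53.7 CPM. EDN2 (5.83 CPM), NR4A1 and SOCS3 were under 10 CPM in cluster 1, so their direction was set by the limit. The median over the immediate early list was 0.48.

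Lower than in cluster 1 were LTB, a tumour necrosis factor family cytokine (5.09 against 18.3 CPM), and FST, which encodes the activin and BMP antagonist follistatin (45.3 against 111 CPM). MMP13, a collagenase, was at 127 against 292 CPM and SFRP1, a WNT antagonist, at 155 against 334 CPM. ETV4, a transcription factor of FGF signalling, was at 11.6 against 24.8 CPM, and LOC101686339 and LOC101679740 made up the rest. Genes such as LTB, under 10 CPM in cluster 2, had their direction set by the limit. DLL1, JAG2, LFNG and HES1 were similar in the 2 clusters, at 1.11, 1.13, 1.14 and 1.23 times the cluster 1 level. HEY1 was 1.89 times and KRT15 1.69 times (1.45 to 1.99) as high, both under 2-fold, and DLK2 was lower at 0.70 times. EDN2 was the marker that differed by 2-fold, from under 10 CPM in cluster 1.

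WT day 2 cells classed as ductal, 4452 cells in 17 clusters, were set beside cluster 2. Their median depth was 14964 UMIs and their median mitochondrial share 9.11%, and the 2 genotypes were clustered and named separately. Of 7789 genes, 303 were at least 2-fold higher in cluster 2 (3.89%) and 341 were lower (4.38%). Genes under 10 CPM in 1 set, such as EDN2 and HEY1 in the WT cells, had their direction set by the limit. KRT15 was at 41.8 CPM in cluster 2 against 153 CPM in the WT ductal cells, a ratio of 0.274 (0.248 to 0.302), and 9 of 13 WT day 2 clusters lay above cluster 2. EDN2 was at 7.16 CPM in the WT ductal cells, HEY1 at 6.52 CPM, DLL1 at 75 CPM and DLK2 at 24.6 CPM, all below cluster 2. None of these 13 WT clusters, each of at least 50 day 2 cells, exceeded cluster 2 for EDN2, HEY1 or DLL1. The closest were WT cluster 4 for EDN2 (11.2 CPM) and DLL1 (136 CPM) and WT cluster 35 for HEY1 (25 CPM from 4 UMIs, interval 6.81 to 64.0, so its level is not known to lie below). EDN2 in WT cluster 35 rested on 1 UMI (6.25 CPM, interval 0.158 to 34.8), so it too could lie above.

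The other Notch genes split in this comparison. LFNG was at 90.8 against 18.8 CPM and JAG2 at 79.5 against 34.1 CPM, while HES1 was at 1005 against 1097 CPM and NOTCH1 at 80.5 against 116 CPM. IGFBP3, high within the CF library, was lower than in WT (988 against 2212 CPM). Among 8 BMP response genes, 6 were at least 2-fold higher and 1 was lower than in WT, with SMAD7 at 94.8 against 24 CPM and SMAD6 at 29.4 against 5.48 CPM. Over all genes 3.89% were higher and 4.38% lower than in WT. ASS1 was at 46.8 against 1.83 CPM. SMAD6 and ASS1 were under 10 CPM in the WT ductal cells, so their direction was set by the limit. SOX2, a stem cell and foregut factor, had no UMI in cluster 2, where 3 UMIs would be 0.294 CPM, and was at 106 CPM in the WT ductal cells, so it was at least 359-fold lower. This was common to CF cells, since each whole CF library held 1 to 3 SOX2 UMIs.

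Among WT clusters of at least 50 day 2 cells, the most like cluster 2 was WT cluster 19, with 556 cells classed as ductal and r of 0.957. It differed from most WT clusters in having little SOX2 (2.51 CPM), as did WT clusters 11 and 33 (4.91 and 3.34 CPM), while the other 10 had 99.99 to 208 CPM. KRT15 in WT cluster 19 was 34.5 CPM, below the 41.8 CPM of cluster 2. It had no PDX1 UMI, against 3.23 CPM in cluster 2. LFNG and JAG2 were at 53.6 and 53.4 CPM in WT cluster 19, against 90.8 and 79.5 CPM in cluster 2. Both were thus nearer to cluster 2 than in the pooled WT ductal cells (18.8 and 34.1 CPM). HES1 was at 2096 CPM there, above the 1005 CPM of cluster 2. Against WT cluster 19 alone, a choice made after its values were seen, 153 genes were at least 2-fold higher and 141 lower.

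The cluster was nearly absent after day 2, and its markers declined in the whole CF libraries. EDN2 was at 5.01, 2.57, 0.633 and 0.160 CPM on day 2, 5, 7 and 9, and KRT15 was at 17.4, 10.1, 4.09 and 1.6 CPM. DLL1 was at 64.9, 53.6, 43.8 and 27.4 CPM, DLK2 at 18.7, 14.2, 12.6 and 4.2 CPM and HEY1 at 8.69, 8.73, 6.02 and 3.68 CPM. Fewer cells of a kind and less RNA per cell cannot be told apart in such sums. A change with day also cannot be told from a difference between libraries, in these sums or in the cells assigned to cluster 2. Other genes of the cluster went the other way over the same days. IGFBP3 went from 326 CPM on day 2 to 947 CPM on day 9, SMAD7 from 40.4 to 115 CPM and LFNG from 37.4 to 47.1 CPM. In the WT libraries DLL1, DLK2 and KRT15 also ended lower on day 9 (25.2, 0.389 and 16.8 CPM) than on day 2 (62.1, 22 and 131 CPM), while EDN2 and HEY1 ended at 5.56 and 8.06 CPM after 7.08 and 5.79 CPM.

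**Figure D5:**
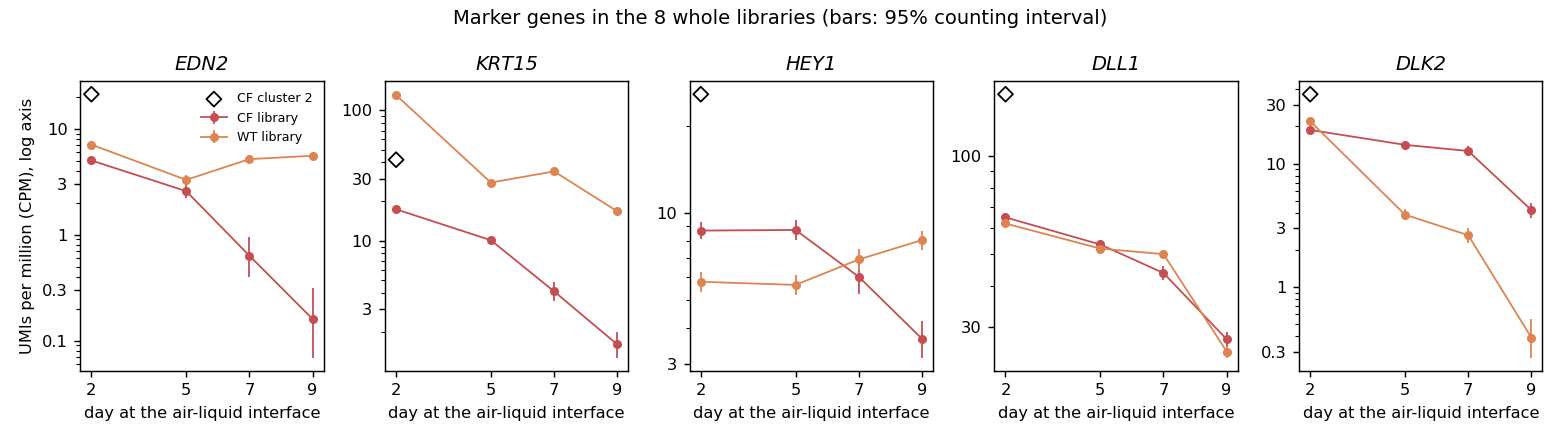
Levels of the 5 marker genes in the whole CF (red) and WT (orange) libraries by day at the ALI, in CPM on log axes with 95% counting intervals, and in CF cluster 2 on day 2 (diamonds). All 5 CF lines ended below their day 2 value, EDN2 at 0.160 CPM, and the WT lines of EDN2 and HEY1 ended at 5.56 and 8.06 CPM.

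Later CF clusters of at least 50 cells carried parts of the pattern. The nearest on day 5 was cluster 0, classed as centroacinar, with r of 0.976, EDN2 at 6.37 CPM, KRT15 at 27.3 CPM, HEY1 at 17.1 CPM and DLL1 at 126 CPM. None of 10 clusters on day 5, 13 on day 7 and 11 on day 9 exceeded cluster 2 for EDN2, KRT15 or HEY1. Close to it were cluster 16 on day 5 for HEY1 (24.7 CPM, within the interval of cluster 2) and cluster 26 on day 5 for KRT15 (37.5 CPM). HEY1 was also at 22.3 CPM in cluster 21 and 21.8 CPM in cluster 27 on day 7. Intervals were not computed for these later clusters, so they are not known to lie below cluster 2. DLK2 was higher in cluster 16 on day 7 (43.7 CPM). DLL1 in cluster 27 on day 7 (160 CPM) lay within the interval of cluster 2, and JAG2 reached 286 CPM there. HES1 was higher than in cluster 2 in 4 clusters on day 5, 5 on day 7 and none on day 9. The 2 day 5 cells of cluster 2 held 31763 UMIs, with 67 of HES1, 6 of DLL1, 3 of HEY1 and none of EDN2 or KRT15.

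In the authors' pseudotime, an ordering of cells along inferred paths, the authors set the start at the cluster with the most day 2 cells. That is cluster 1, the nearest to cluster 2, so a low score of cluster 2 largely restates that likeness. Cluster 2 was on all 13 CF lineages with 675 or 676 of its cells, and its median score ran from 6.76 to 11.3. Cluster 1 ran from 5.52 to 9.96, and cluster 2 came next to it on 8 lineages. On lineages 4, 6, 8 and 10 it ranked 4 and on lineage 11 it ranked 3, out of 4 to 7 clusters. Its median lay above that of the other cells on lineages 4 (9.62 against 9.06), 6 (10.2 against 9.33), 8 (11.3 against 10.3), 11 (10.7 against 9.11) and 13 (11.1 against 11). On lineage 1 the median of cluster 2 was 7.93 (quartiles 6.28 and 9.92), against 6.57 in cluster 1 and 33.0 in cluster 4. Pseudotime was derived from the same expression values as the clusters, so it is no separate measurement of age or order.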

How the data were processed

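Single-cell 3′ RNA libraries of ferret PDE cultures were analysed from the deposited UMI counts and the authors' cell table. The authors aligned reads with Cell Ranger 5.0.1 to ASM1176430v1.1 with an improved annotation, dropped cells under 200 detected genes or over 20% mitochondrial UMIs, removed doublets with DoubletFinder, and clustered and named CF and WT cells separately in Seurat under R 4.1.2. No doublet caller was rerun. The percent mitochondrial column, cell-cycle phase calls and pseudotime score are deposited by the authors. Their normalized table was not used.

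UMI counts were summed per set of cells and expressed as CPM in Python 3.11.15 with numpy 2.4.6, scipy 1.17.1 and pandas 2.3.3. Genes with at least 10 CPM in either set were compared as differences of log2(CPM + 1), and called at 2-fold. Intervals are 95% exact Poisson for levels, exact conditional binomial for ratios and Clopper-Pearson for shares, and cover counting error only. With 1 library per group of pooled animals no test was made. Cells were thinned to 3000 UMIs for shares. The calculations were tested on simulated data.

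Named were the 5 markers, the 15 highest and 10 lowest genes, up to 4 genes per list, all Notch, endothelin and basal genes, CFTR, PDX1, PAX6, SOX9 and HES1, and genes 2-fold from cluster 1. SOX2, MKI67 and further list members (ADIRF, S100A10, HBEGF, EGFR) were named after their values were seen, as was the choice of all basal genes made. The members and lists were chosen with earlier results of these data known. Alternatives were other pseudocounts, limits, scalings, weights and comparison cells. Values of a few list members are not reported here.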

Additional observations from a re-analysis of the deposited data

How the results depend on the processing

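No paired analysis was possible because each group has 1 library, and for the same reason no replicate could be left out. Against the other CF day 2 cells (89 genes higher, 264 lower), the number higher was 46 with a pseudocount of 5 CPM, 45 at 50 CPM or more, 43 with equal weight per cell, 35 with equal weight per cluster, 185 against other ductal cells alone and 152 without cluster 1. The number lower was 80 at 50 CPM or more and 524 with no limit. TMM scaling gave 69 higher and 318 lower, median-of-ratios 67 and 320. Of the 5 markers, 4 stayed 2-fold higher with a pseudocount of 5 CPM (DLK2 0.93) and with equal weight per cell or per cluster. Against all WT day 2 cells 513 genes were lower. Against WT cluster 19 alone 153 were higher and 141 lower, and against cluster 1 there were 5 higher and 4 lower at 50 CPM or more and 14 and 18 with no limit. These last 3 choices were made after seeing the data. The sign changed for the Notch target median with no limit (−0.01 over 8 genes) and for CCN1 against all CF cells of 4 days (−0.11). With no limit the median also turned for mesenchymal (0.40 to −0.24) and endothelin genes (0.59 to −0.02). Over 44 named genes and 572 values no other sign changed. Against all CF cells of 4 days the 2-fold difference was lost for IGFBP3 (0.53), GADD45B (0.75), FGFR2 (0.65), HMCN2 (0.64), ASS1 (0.54), SMAD7 (0.36), SMAD6 (0.64), ID4 (0.55), HES1 (0.70), SNAI2 (0.40), JUN (0.79) and HSPB1 (0.91). With equal weight per cluster it was lost for JAG2 (0.97), NOTCH2 (−0.77), SNAI2 (0.70), JUN (0.83), DUSP1 (0.98) and HSPB1 (0.96). The causes were not tested. EDN2 ranged from 1.67 to 2.85, HEY1 from 1.38 to 1.95, DLL1 from 1.23 to 1.79, KRT15 from 1.14 to 2.06 and DLK2 from 0.56 to 1.5.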
